A study of Rattus norvegicus with 192 samples.

Results

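Cholesterol synthesis and its control by SREBP2 were examined through 28 genes, chosen by symbol and matched to rows of a table of 17483 genes, in 4 tissues of adult male rats: liver, pituitary, hypothalamus and thyroid. All rats were wild type animals of the Crl:CD(SD) stock and received daily oral doses for 7 days, from postnatal day 56 to 62. The groups were the combination of 3 mg/kg PFOS with 8 mg/kg vancomycin, PFOS alone at 3 mg/kg, vancomycin alone at 8 mg/kg, and the corn oil vehicle, with 12 libraries per tissue and group. PFOS is perfluorooctane sulfonate, a persistent surfactant, and vancomycin is an antibiotic that acts on gut bacteria when swallowed. The labels number the libraries without stating that each number is 1 animal, so the p-values measure the spread between these libraries.

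RNA was measured by BRB-seq, a method that reads the 3′ ends of transcripts after each sample has received its own barcode, and the deposited values were counts per gene. Libraries with under 100000 counts were left out, which kept 178 of 192: 10 combination, 8 PFOS, 10 vancomycin and 9 vehicle livers, all 48 pituitaries, 47 hypothalami and 46 thyroids. Totals in the kept libraries ran from 106742 to 3387946 counts, and levels are given in CPM, counts scaled to the library total. Each treatment filled its own rows of a plate, so an effect of the row cannot be told apart from one of the treatment. In bulk tissue, fewer cells of a type and less RNA per cell cannot be told apart either. Pituitary hormone transcripts (8 genes) made up 31.5% to 45.2% of vehicle pituitary counts, hepatocyte transcripts (7 genes) 17.6% to 20.5% of vehicle liver counts, and thyroid follicular transcripts (7 genes) 3.87% to 7.45% of vehicle thyroid counts, while the 7 neuron markers summed to 0.301% to 0.455% in vehicle hypothalamus.

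Cholesterol is built from acetyl-CoA through mevalonate and isoprenoid units to squalene, and from squalene through lanosterol to cholesterol. The transcription factor SREBP2, encoded by Srebf2, drives these enzymes: the escort protein Scap carries it to the Golgi for cleavage when sterols are scarce, and the Insig proteins hold it in the endoplasmic reticulum when sterols are plentiful. Liver makes and exports cholesterol for the body and responds to thyroid hormone, whereas brain makes its own because plasma lipoproteins do not cross into it. The set held 8 genes from acetyl-CoA to isoprenoids, 3 from squalene to lanosterol, 9 from lanosterol to cholesterol, 4 of SREBP2 control and 4 of sterol transport and esterification. The sterol transporters in it were Npc1, which moves cholesterol taken up with lipoproteins out of lysosomes, and Stard4, a cytosolic sterol carrier.

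The count filter for testing was passed by 22 of the 28 genes in liver, 18 in pituitary, 22 in hypothalamus and 14 in thyroid. Lbr, a sterol reductase of the nuclear envelope, and the esterifying enzyme Soat1 were scarce throughout: they gave 9 and 2 counts over all 37 livers. Hsd17b7, a ketosteroid reductase of the pathway, and Stard4 passed in no tissue, with 277 and 117 counts in liver. Soat2, the esterifying enzyme of liver and intestine, passed in liver alone, with 448 counts there, against 13 in pituitary, 4 in hypothalamus and 16 in thyroid. Mvd passed only in hypothalamus, Insig2 only in liver, and Ggps1, which makes geranylgeranyl diphosphate, everywhere except liver.

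The start sites of the 5 genes on which the results below turn are printed because 3 of them varied together across pituitary libraries and the other 2 carried the treatment calls in liver and pituitary. The sequences are RefSeq promoter windows of assembly GRCr8, from 250 bases before to 50 bases after each annotated start, and capitals mark the letters CCAAT of factor NF-Y, the letters GGGCGG of factor Sp1 and the E-box letters CACGTG, on either strand and with no overlap between matches. They lie at chr2:53382054-53382353, plus strand (Hmgcs1), chr17:66547475-66547774, minus strand (Idi1), chr4:8057720-8058019, minus strand (Insig1), chr7:115543057-115543356, plus strand (Srebf2), chr1:50100590-50100889, plus strand (Acat2).
Hmgcs1: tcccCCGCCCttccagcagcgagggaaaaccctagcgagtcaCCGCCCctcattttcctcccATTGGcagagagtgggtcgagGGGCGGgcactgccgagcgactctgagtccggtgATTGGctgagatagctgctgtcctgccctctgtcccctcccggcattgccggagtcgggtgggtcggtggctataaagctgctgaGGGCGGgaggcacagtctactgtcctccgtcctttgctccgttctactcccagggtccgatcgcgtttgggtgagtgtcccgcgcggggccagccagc
Idi1: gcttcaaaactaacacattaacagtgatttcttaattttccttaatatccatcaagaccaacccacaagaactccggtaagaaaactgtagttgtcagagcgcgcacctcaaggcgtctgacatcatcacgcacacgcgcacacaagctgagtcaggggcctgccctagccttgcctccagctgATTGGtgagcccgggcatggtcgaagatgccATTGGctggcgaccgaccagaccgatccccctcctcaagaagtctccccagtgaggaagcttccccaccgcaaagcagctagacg
Insig1: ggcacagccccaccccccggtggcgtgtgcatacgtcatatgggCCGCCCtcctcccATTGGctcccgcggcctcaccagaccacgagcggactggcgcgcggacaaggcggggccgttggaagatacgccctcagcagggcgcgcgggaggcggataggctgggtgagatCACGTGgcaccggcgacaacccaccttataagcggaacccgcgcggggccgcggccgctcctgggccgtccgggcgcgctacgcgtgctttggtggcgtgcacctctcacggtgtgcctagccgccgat
Srebf2: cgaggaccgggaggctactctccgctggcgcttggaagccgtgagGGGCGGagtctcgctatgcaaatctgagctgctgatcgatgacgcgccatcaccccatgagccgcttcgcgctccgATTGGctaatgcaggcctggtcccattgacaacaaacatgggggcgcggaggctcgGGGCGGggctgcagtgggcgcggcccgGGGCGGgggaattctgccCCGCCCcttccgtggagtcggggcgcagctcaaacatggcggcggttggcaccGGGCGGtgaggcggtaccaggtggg
Acat2: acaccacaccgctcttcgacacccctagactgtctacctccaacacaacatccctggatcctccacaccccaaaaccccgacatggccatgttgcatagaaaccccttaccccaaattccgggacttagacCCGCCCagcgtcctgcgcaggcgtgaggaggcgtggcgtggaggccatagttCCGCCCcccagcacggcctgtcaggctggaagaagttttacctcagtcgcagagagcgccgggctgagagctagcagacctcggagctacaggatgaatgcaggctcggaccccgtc
Windows were found for 23 of the 28 genes, and Fdft1, Pmvk, Soat2, Sqle and Stard4 are named only. The NF-Y letters occurred in 18 of the 23 windows (78.3%), against 37.5% of the 12281 windows in the table. The Sp1 letters occurred in 19 (82.6%), against 54.1%, and the E-box letters in 3 (13%), against 8.35%. The textbook sterol element TCACCCCAC, and its looser form TCACNCCAC, which contains it, occurred in 0 of the 23, against 0.399% and 1.12% of all windows. Of the printed windows, Hmgcs1, Idi1, Insig1 and Srebf2 held the NF-Y letters, and Acat2 held the Sp1 letters at 2 places without them. These matches describe letters in a short window and were not tested as binding sites.

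In vehicle rats, the pathway was far more abundant in liver than in thyroid, which shared a plate. By edgeR, 14 of 18 tested genes were higher in liver and 1 was lower, where 28.5% of 4777 genes were higher and 44.1% lower, or 72.7% either way. A gene that passes the filter only through liver had to differ, so the 13 genes that passed in both tissues are given apart: 10 were higher and 0 lower, where 37.5% of the 2709 genes that passed in both were higher and 31.7% lower. Cyp51, Dhcr7, Insig1 and Nsdhl passed through liver alone, and Ggps1 through thyroid alone.

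Hmgcs1, the cytosolic synthase that commits acetyl units to the mevalonate route, averaged 327 ± 122 CPM in vehicle livers (SD, n = 9) and 12.2 ± 4.22 CPM in vehicle thyroids (n = 12). Its log2 difference was 5.65 ± 0.19 (SE), with an edgeR adjusted p of 1.48e-24. Fdps, farnesyl diphosphate synthase, averaged 945 ± 280 CPM in liver and 156 ± 16.8 CPM in thyroid, a log2 difference of 3.60 ± 0.15. Ebp, a sterol isomerase, averaged 293 ± 51.8 CPM in liver and 48.4 ± 6.87 CPM in thyroid, a log2 difference of 3.58 ± 0.12. For each of these genes the lowest vehicle liver was above the highest vehicle thyroid.

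Sqle, Mvk and Srebf2 were not called. Sqle, squalene epoxidase and a rate-controlling oxygenase of the pathway, averaged 67.1 ± 32.1 CPM in liver and 114 ± 17.9 CPM in thyroid, and its log2 difference of 0.11 ± 0.18 had an edgeR adjusted p of 0.597. Mvk, mevalonate kinase, was at 0.38 ± 0.25 and Srebf2 at -0.33 ± 0.24. Srebf2 averaged 33.5 ± 24.3 CPM in liver and 72.4 ± 24.9 CPM in thyroid, and these ranges overlapped. The log2 differences use trimmed mean scaling, which sets aside the highly abundant liver transcripts, and so lie above the ratios of CPM. The hepatocyte markers summed to a median of 0.205% in vehicle thyroids, and to 0.177% in vehicle hypothalami, which sat on the other plate. The source of this signal and its part in thyroid levels were not tested.

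Between pituitary and hypothalamus, on the other plate, the genes went both ways. Of 19 genes tested, 3 were higher in pituitary and 10 lower by edgeR, where 36.1% of 4958 genes were higher and 38.4% lower, or 74.5% either way. Scap passed the filter through hypothalamus alone. Of the 18 genes that passed in both tissues, 3 were higher and 10 lower, where 43.1% of 3992 such genes were higher and 28.8% lower. Hmgcs1 averaged 71.3 ± 37.6 CPM in pituitary and 299 ± 36.1 CPM in hypothalamus (n = 12 each), a log2 difference of -1.44 ± 0.19 with an edgeR adjusted p of 2.29e-07. Srebf2 averaged 52.3 ± 18.8 CPM in pituitary and 252 ± 71.2 CPM in hypothalamus, a log2 difference of -1.66 ± 0.19. The groups did not overlap for either gene. Pituitary hormone transcripts summed to a median of 0.564% in vehicle hypothalami, and their source was not tested.

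Pmvk, which adds the second phosphate to mevalonate, and Cyp51, lanosterol demethylase, were lower in pituitary, at -0.91 ± 0.11 and -0.98 ± 0.14. Ebp, Idi1 (isopentenyl diphosphate isomerase) and Sqle were higher in pituitary by edgeR, at 0.61 ± 0.14, 0.48 ± 0.21 and 0.61 ± 0.14. In CPM, a share of all counts including the abundant hormone transcripts, these 3 were not higher in pituitary: Ebp averaged 35.1 in pituitary and 36.4 in hypothalamus, Sqle 58.7 and 59.3, and Idi1 103 and 114. Idi1 was not called with DESeq2 size factors, and its difference turned to -0.42 among libraries of at least 500000 counts. Liver and hypothalamus sat on different plates, so their levels carry no test: Hmgcs1 was at 327 CPM in liver and 299 CPM in hypothalamus, Fdft1 (squalene synthase) at 149 and 225 CPM, and Insig1 at 130 and 43.3 CPM.

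**Figure D1:**
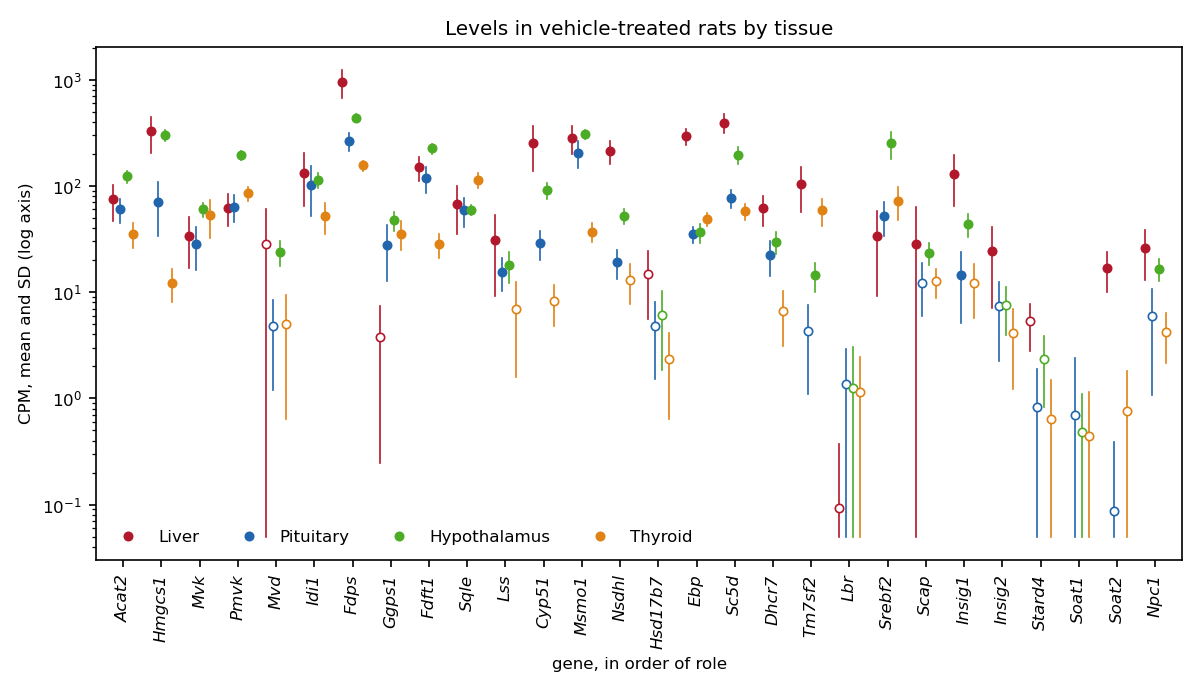
Mean CPM with its SD of each of the 28 genes in vehicle-treated rats, on a log axis, by tissue (9 livers and 12 libraries of each other tissue). Filled points passed the count filter in that tissue, bars are cut at the axis, and a mean of 0 is not drawn; liver points lie above thyroid points for Hmgcs1, Fdps and Ebp but not for Sqle or Srebf2.

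In liver under PFOS alone, 1 gene of the pathway passed the test and most other estimates were below 0. Acat2, the cytosolic acetyl-CoA thiolase of the first step (not the esterifying enzyme once called ACAT2, which is Soat2), fell by 0.81 ± 0.21 on the log2 scale, with an edgeR adjusted p of 0.0494. It was the 1 gene called of 22 tested, where 0.831% of 3250 genes were called. The estimates were below 0 for 20 of the 22, with a median of -0.34, while the median of all genes was -0.02 and 52.7% of them were below 0. At an unadjusted p under 0.05, 7 of the 22 (31.8%) were lower and none higher, against 10.8% of all genes in either direction.

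Acat2 ran from 19.95 to 121 CPM with a median of 38.7 in PFOS livers (n = 8), against 43.7 to 122 CPM with a median of 60.1 in vehicle livers (n = 9). The groups overlapped, and 7 of the 8 PFOS livers were below the vehicle mean of 75.0 CPM. The exception, the PFOS library numbered 35, held 107856 counts and had the top Acat2 value of its group. Without it the fall was 0.95 ± 0.19, with an edgeR adjusted p of 0.00553. Over all 37 fits that left out 1 liver library the adjusted p ran from 0.00553 to 0.152, and the call held in only 6 of them, those without the vehicle livers numbered 4, 5, 7 and 8, the combination liver 42 or the PFOS liver 35. It was also lost with DESeq2 size factors, with no filter on low counts, among libraries of at least 500000 counts and in both fits that dealt with barcode composition, while DESeq2 kept it with an adjusted p of 0.0148. Median totals were 447620 counts in PFOS and 283086 in vehicle livers. The minimum of 500000 counts thus left fewer libraries, which can by itself lose a call.

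The enzymes of squalene and lanosterol formation had the lowest median of any step, at -0.71 for 3 genes, none of them called. Sqle ran from 19.95 to 74.2 CPM with a median of 28.99 in PFOS livers, against 25.99 to 103 CPM with a median of 64.6 in vehicle livers. Its log2 fold change was -0.71 ± 0.27, with an edgeR adjusted p of 0.288. The PFOS median was near the lowest vehicle liver, and the groups overlapped. Lss, which closes squalene epoxide into lanosterol, had 8.30 to 25.1 CPM with a median of 15.4 in PFOS livers, against 10.4 to 84.3 CPM with a median of 25.99 in vehicle livers, a log2 fold change of -0.73 ± 0.31. Fdft1, the squalene synthase, was at -0.23 ± 0.16.

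The early steps had a median of -0.37 over 6 genes, with Idi1 at -0.46 ± 0.22, Mvk at -0.42 ± 0.28, Fdps at -0.32 ± 0.18, Hmgcs1 at -0.19 ± 0.22 and Pmvk at -0.14 ± 0.21. From lanosterol onward, all 7 tested genes were below 0 with a median of -0.25. Msmo1, the methyl sterol oxidase, was at -0.45 ± 0.20, and Dhcr7, the last reductase of the route, at -0.06 ± 0.26. The 20 synthesis enzymes together summed to 1856 to 3811 CPM with a median of 2600 in PFOS livers, against 2827 to 4624 CPM with a median of 3307 in vehicle livers, and the groups overlapped.

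Among control and transport genes, Srebf2 was at -0.54 ± 0.32, Insig1 at -0.35 ± 0.29, Insig2 at -0.38 ± 0.49 and Scap at 0.04 ± 0.43. Npc1 ran from 2.49 to 24.3 CPM with a median of 9.64 in PFOS livers, against 11.5 to 48.8 CPM with a median of 23.2 in vehicle livers. Its log2 fold change of -0.91 ± 0.34 had an edgeR adjusted p of 0.259. Soat2 pointed the other way: it had 5.45 to 46.4 CPM with a median of 25.7 in PFOS livers, against 7.06 to 28.1 CPM with a median of 14.9 in vehicle livers, a log2 fold change of 0.58 ± 0.35. Both genes overlapped between the groups and neither was called.

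**Figure D2:**
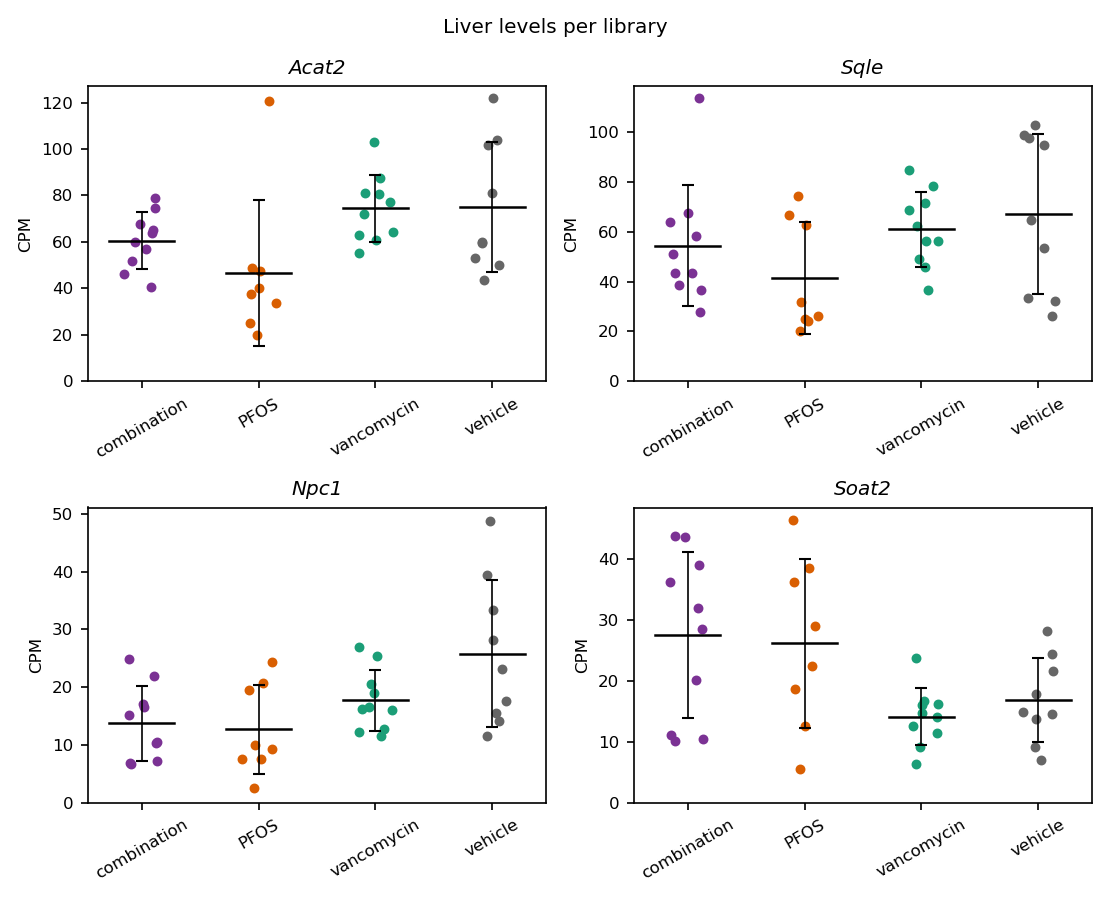
CPM of Acat2, Sqle, Npc1 and Soat2 in single liver libraries by treatment, with the mean (line) and SD (bar) of 10 combination, 8 PFOS, 10 vancomycin and 9 vehicle livers. Acat2 medians were 61.9, 38.7, 74.6 and 60.1 CPM in that order, and Soat2 medians 30.2, 25.7, 14.4 and 14.9 CPM.

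The same dose of PFOS given with vancomycin was compared with vancomycin alone, and here 0 of the 22 genes were called by edgeR or by DESeq2, where edgeR called 0.923% of all genes. Of the 22, 2 (9.09%) had an unadjusted p under 0.05, Acat2 lower and Soat2 higher, against 8.37% of all genes. Acat2 ran from 40.5 to 78.8 CPM with a median of 61.9 in combination livers (n = 10), against 55.1 to 103 CPM with a median of 74.6 in vancomycin livers (n = 10), a log2 fold change of -0.36 ± 0.18 with an edgeR adjusted p of 0.568. Soat2 ran from 10.1 to 43.8 CPM with a median of 30.2 in combination livers, against 6.41 to 23.7 CPM with a median of 14.4 in vancomycin livers, a log2 fold change of 0.83 ± 0.29 with an edgeR adjusted p of 0.303. The estimates were below 0 for 14 of 22 genes, with a median of -0.14, against 0.01 for all genes.

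The difference of the PFOS effects in vancomycin-treated and other rats, tested as an interaction, was above 0 for 21 of 22 genes, with a median of 0.26 against 0.01 for all genes. None passed, no gene of any kind passed (0%), and 0 of the 22 had an unadjusted p under 0.05, so no dependence on vancomycin was detected. For Acat2 the interaction was 0.45 ± 0.28, and for Msmo1 0.49 ± 0.27. Against vehicle, the combination gave 0 calls among the 22 by edgeR and by DESeq2 (0.769% of all genes by edgeR), with a median of -0.13 and 2 genes at an unadjusted p under 0.05, Npc1 at -0.76 ± 0.30 and Soat2 at 0.73 ± 0.32. These 2 were 9.09% of the 22, against 9.63% of all genes at that unadjusted level. Vancomycin alone gave 0 calls by either tool (0% of all genes) and 0 genes at an unadjusted p under 0.05, with a median of -0.07.

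**Figure D3:**
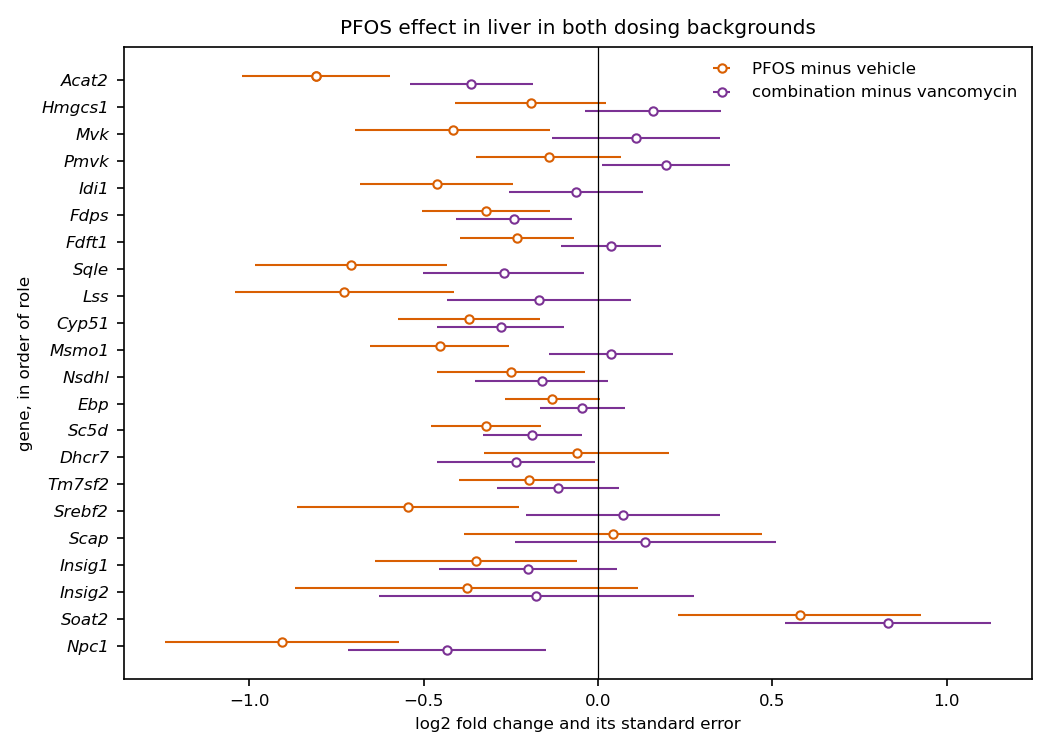
Log2 fold changes with their standard errors for the 22 genes tested in liver, for PFOS minus vehicle and for the combination minus vancomycin. Most estimates for PFOS minus vehicle lie left of 0, with medians of -0.34 and -0.14 for the 2 comparisons, and Soat2 lies right of 0 in both.

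Averaging both PFOS comparisons used 18 PFOS-treated and 19 other livers. Acat2 fell by 0.59 ± 0.14, with an edgeR adjusted p of 0.00840, and 16 of the 18 PFOS-treated livers were below the mean of the livers without PFOS. It was the 1 gene called of 22, where 3.54% of all genes were called, and it was called in all 37 fits that left out 1 library, with adjusted p-values from 0.000663 to 0.0216. It stayed called without the 5 vehicle livers whose well barcodes held an unusual number of G and C bases, at -0.57 ± 0.15 with an adjusted p of 0.0328. Without the filter on low counts the adjusted p was 0.0615.

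Soat2 at 0.70 ± 0.23 and Npc1 at -0.67 ± 0.22 missed the threshold narrowly, with edgeR adjusted p-values of 0.0700 and 0.0745. Soat2 was called with depth as a covariate, and in 4 of 37 fits that left out 1 library (PFOS 34, combination 39, 43 or 47). Npc1 was called without PFOS liver 25 or vehicle liver 7. Sqle was at -0.49 ± 0.18, Lss at -0.45 ± 0.21, Cyp51 at -0.32 ± 0.14, Fdps at -0.28 ± 0.12 and Sc5d, a sterol desaturase, at -0.26 ± 0.11, each with an unadjusted p under 0.05 and none called. Hmgcs1, at -0.02 ± 0.14, and Pmvk, at 0.03 ± 0.14, were near 0. In the same livers the 7 hepatocyte markers summed to 12.7% to 17.7% of counts in combination and 13.6% to 18.4% in PFOS livers, against 18.3% to 20.7% in vancomycin and 17.6% to 20.5% in vehicle livers. Of these markers, 2 of 7 fell in the averaged PFOS comparison, and their part in the pathway's levels was not tested.

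The averaged PFOS effects on Acat2 and Sqle were called lower in liver than in hypothalamus and in thyroid, but not than in pituitary by edgeR. Sqle was not called within liver itself. Liver shared a plate with thyroid but not with hypothalamus or pituitary. Against those tissues, a difference of tissue cannot be told apart from one of plate or plate row. By an edgeR interaction over both tissues, 4 of 25 tested genes had a lower PFOS effect in liver than in hypothalamus and 0 a higher one, where 2.63% of 7193 genes were lower and 3.93% higher, or 6.56% either way. These were Acat2 (-0.74 ± 0.13, adjusted p 6.72e-05), Sqle (-0.67 ± 0.17, adjusted p 0.00548), Npc1 (-0.84 ± 0.24) and Fdps (-0.41 ± 0.13). Against thyroid, 2 of 24 genes were lower and 0 higher, where 1.85% of 5823 genes were lower and 3.88% higher, or 5.74% either way: Acat2 at -0.76 ± 0.18 and Sqle at -0.62 ± 0.17. Against pituitary, 0 of 24 were called by edgeR, where 0.2% of all genes were and 0.0363% were lower, and 3 had an unadjusted p under 0.05, while DESeq2 called Acat2. With depth as a covariate, Acat2 alone was called against thyroid, and Npc1 was not called against hypothalamus with that covariate or among libraries of at least 500000 counts. With the library number as a replicate block across tissues, both calls against thyroid were lost and fewer genes were called against hypothalamus.

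In pituitary, Srebf2 was the gene of the set that passed the test, and no enzyme was called with it. Srebf2 ran from 19.3 to 41.7 CPM with a median of 30.2 in PFOS pituitaries, against 23.2 to 90.7 CPM with a median of 49.1 in vehicle pituitaries (n = 12 each). It fell by 0.80 ± 0.18 on the log2 scale, with an edgeR adjusted p of 0.00566, and was the 1 gene called of 18 tested, where 1.19% of 4380 genes were called. All 12 PFOS pituitaries were below the vehicle mean of 52.3 CPM, while the groups overlapped.

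Combination pituitaries had 9.91 to 36.98 CPM of Srebf2 with a median of 21.9, which set against the same vehicle group was a fall of 1.23 ± 0.18 with an edgeR adjusted p of 2.80e-05. It was again the 1 gene called of 18, where 1.37% of all genes were. Averaged over both comparisons the PFOS effect was -0.67 ± 0.13 with an edgeR adjusted p of 0.000900, 1 call of 18 against 1.44% of all genes. These comparisons share control libraries. Vancomycin pituitaries, which received no PFOS, had 22.3 to 43.7 CPM with a median of 33.2, and their difference from vehicle of -0.70 ± 0.17 had an edgeR adjusted p of 0.338, with 0 of 18 called (2 at an unadjusted p under 0.05, 0 by DESeq2) against 0.0228% of all genes. Those 2 were 11.1% of the 18, against 4.68% of all genes at that unadjusted level. Srebf2 was called there without vehicle pituitary 7, with an edgeR adjusted p of 0.0312. Set against vancomycin, the combination gave -0.53 ± 0.18 with an adjusted p of 0.711, and 0 of 18 genes were called by edgeR or DESeq2, 1 having an unadjusted p under 0.05, with 0% of all genes called. That 1 gene was 5.56% of the 18, against 6.74% of all genes at that unadjusted level.

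The highest vehicle values came from 5 wells. The 5 vehicle pituitaries with 3 or 4 G and C bases in their 6-base well barcode had 54.1 to 90.7 CPM of Srebf2, and the 7 with 5 such bases, the number in all other pituitaries, had 23.2 to 49.4 CPM. Without those 5 libraries the log2 fold changes were -0.38 ± 0.20 for PFOS, -0.81 ± 0.20 for the combination and -0.46 ± 0.13 for the average. None of these was called by edgeR (adjusted p 0.9997, 0.351 and 0.230), and none was called among libraries of at least 500000 counts either. The median total of vehicle pituitaries was 376310 counts, so that minimum left fewer of them. A smaller number of libraries can by itself lose a call. Hypothalamus, on the same plate, had 137 to 378 CPM of Srebf2 in vehicle rats. The 7 neuron markers summed to 0.0458% to 0.0608% in the 5 vehicle pituitaries and to 0.0512% to 0.0677% in the other 7, and the 6 astrocyte markers to 0.0236% to 0.0282% and 0.0202% to 0.0299%, and these ranges overlapped.

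**Figure D4:**
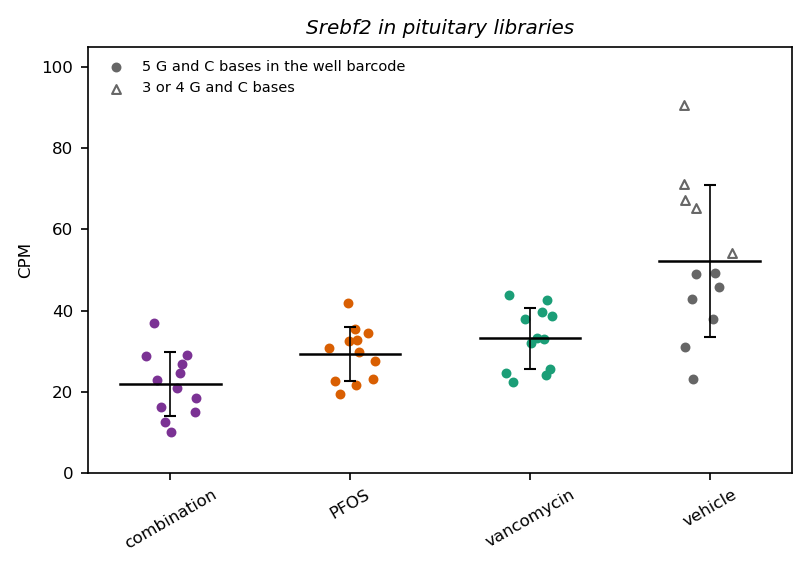
Srebf2 in single pituitary libraries, in CPM, by treatment (12 each), with the mean (line) and SD (bar). The 5 open triangles, all vehicle libraries with 3 or 4 G and C bases in the well barcode, sit between 54.1 and 90.7 CPM, above every library of the other groups.

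None of the other 17 pituitary genes was called under PFOS. Of them, Dhcr7 was at -0.40 ± 0.20, Mvk at -0.30 ± 0.19, Msmo1 at -0.27 ± 0.15 and Hmgcs1 at -0.24 ± 0.32, and the median over all 18 was -0.11 against 0.00 for all genes. The summed enzymes ran from 905 to 1494 CPM in PFOS pituitaries, against 871 to 1662 CPM in vehicle pituitaries. The interaction was called for 0 of 18 genes and 0% of all genes, with 0 at an unadjusted p under 0.05.

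Within pituitary, part of the pathway varied together from library to library. With treatment groups as terms, the level of each gene was fitted on the log2 CPM of Hmgcs1, and of 4379 genes only 3 were called by edgeR (0.0685%), which were Idi1, Fdft1 and Insig1. Insig1 is itself an established SREBP target that feeds back on the pathway. Hmgcs1 ran from 8.05 to 167 CPM over the 48 pituitaries with a median of 53.5, Idi1 from 31.5 to 207 CPM with a median of 76.9, Fdft1 from 49.2 to 198 CPM with a median of 112, and Insig1 from 2.42 to 41.4 CPM with a median of 12.7.

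Per unit of log2 Hmgcs1, Idi1 was higher by 0.56 ± 0.08 on the log2 scale, with an edgeR adjusted p of 4.11e-06. The slope of Insig1 was 0.63 ± 0.11 (adjusted p 0.00119) and that of Fdft1 0.34 ± 0.06 (adjusted p 0.000528). The slopes of 16 of 17 genes were above 0, with a median of 0.10 against 0.00 for all genes, and 7 of 17 had an unadjusted p under 0.05, as did 186 of 4379 genes. Cyp51, at 0.35 ± 0.08, and Dhcr7, at 0.28 ± 0.08, came next, and Srebf2 had a slope of 0.10 ± 0.08. The 3 calls held without the 2 libraries farthest in Hmgcs1 and with barcode composition as a covariate, and none was left among libraries of at least 500000 counts or with Sqle in place of Hmgcs1.

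Of 3249 genes, Idi1 was the only one called (0.0308%), with a slope of 0.78 ± 0.14 and an edgeR adjusted p of 0.00878, and the slopes of 20 of 21 genes were above 0 with a median of 0.33 against 0.00 for all genes. At an unadjusted p under 0.05 there were 8 of 21 genes, against 110 of 3249. Hmgcs1 ran from 165 to 668 CPM with a median of 282 and Idi1 from 57.4 to 252 CPM with a median of 112 over the 37 livers. Acat2 had a slope of 0.62 ± 0.14, Cyp51 0.53 ± 0.15 and Msmo1 0.50 ± 0.15, and Insig1, at -0.02 ± 0.25, had a slope near 0 in liver. The highest Hmgcs1 value, 668 CPM, was that of PFOS liver 35, which held 107856 counts. That library was also the highest PFOS liver for Acat2, at 121 CPM, and for Idi1, at 139 CPM. Without the 2 libraries farthest in Hmgcs1 the slope of Idi1 was 0.76 ± 0.17 with an adjusted p of 0.216.

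In hypothalamus and thyroid, where Hmgcs1 ran from 227 to 405 CPM and from 4.56 to 28.9 CPM, 0 of 21 and 0 of 13 genes were called, with 0.0152% and 0% of all genes. At an unadjusted p under 0.05 there were 3 of 21 in hypothalamus, Idi1, Ebp and Mvd, all above 0, and 1 of 13 in thyroid, Acat2, below 0. Hmgcs1 gave only 398 counts over all 46 thyroids. Its range in hypothalamus was narrow beside the 8.05 to 167 CPM of pituitary. A slope is hard to detect with so few counts or so narrow a range. The lack of calls therefore does not show that these tissues differ from pituitary. Hmgcs1 and each other gene are counted in the same libraries and share their depth, and the slopes describe these libraries without a direction between the genes.

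**Figure D5:**
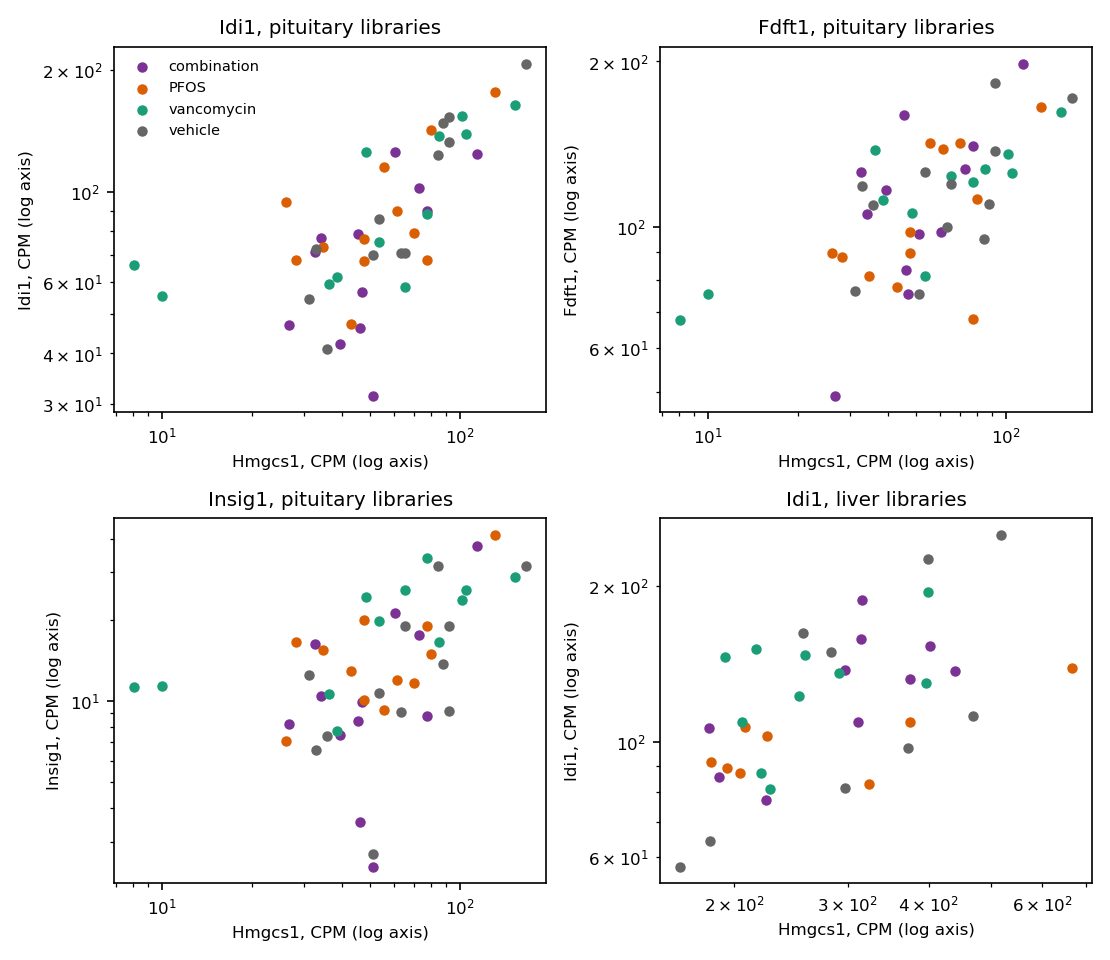
CPM of Idi1, Fdft1 and Insig1 against Hmgcs1 in 48 pituitary libraries, and of Idi1 against Hmgcs1 in 37 liver libraries, both axes logarithmic, each point 1 library coloured by treatment. With 1 slope fitted over all treatments, the other gene was higher where Hmgcs1 was higher, by 0.56, 0.34 and 0.63 per unit of log2 in pituitary and 0.78 in liver, with 2 vancomycin libraries at the low end of Hmgcs1.

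In hypothalamus few genes of the pathway passed the test, at most 1 of 22 in any comparison. PFOS against vehicle called 0 of 22 genes by edgeR, where 4.37% of 6596 genes were called. An unadjusted p under 0.05 was found for 2 of the 22 (9.09%), against 20.6% of all genes. Mvk was nearest, at 0.32 ± 0.10 with an edgeR adjusted p of 0.0504, and DESeq2 called it. PFOS in vancomycin-treated rats called 1 of 22 against 7.82% of all genes. This was Sqle, which ran from 51.7 to 103 CPM with a median of 76.5 in combination hypothalami (n = 11), against 44.9 to 77.2 CPM with a median of 56.4 in vancomycin hypothalami (n = 12). It rose by 0.33 ± 0.11 with an edgeR adjusted p of 0.0478, the groups overlapped, and the call was lost in 18 of 47 fits that left out 1 library, with adjusted p-values up to 0.112. It was also lost with no filter, with depth or barcode composition as a covariate, and with the 4 combination libraries of other barcode composition set aside, where the log2 fold change was 0.27 ± 0.13.

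Averaged over both comparisons, 1 of 22 genes was called against 20.3% of all genes. Fdps had 493.4 ± 57.0 CPM in PFOS-treated hypothalami (n = 23) and 443 ± 35.6 CPM in the others (n = 24), a rise of 0.13 ± 0.05 with an edgeR adjusted p of 0.0409. The call was lost in 7 of 47 fits that left out 1 library: PFOS 29, 32 and 33, combination 47 and 48, vancomycin 18 or vehicle 9, with adjusted p-values up to 0.0681. It was also lost with no filter, with depth as a covariate and in both barcode fits. Mvk, at 0.15 ± 0.07, and Sqle, at 0.17 ± 0.07, were not called. The combination against vehicle called 0 of 22 by edgeR against 8.14% of all genes, and DESeq2 called Fdps. Here 4 of the 22 (18.2%) had an unadjusted p under 0.05, against 23.3% of all genes. Vancomycin and the interaction called 0 of 22 and 0% of all genes by edgeR, and 0 by DESeq2. At an unadjusted p under 0.05 there were 0 and 3 genes (0% and 13.6%), against 2.79% and 4.21% of all genes. The summed enzymes ran from 2254 to 2689 CPM in PFOS hypothalami, against 2137 to 2542 CPM in vehicle hypothalami.

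In thyroid, none of the 14 tested genes was called in any of the 6 comparisons by edgeR or DESeq2. The share of all 5091 genes called was 0.0589% for PFOS against vehicle, 3.24% for PFOS in vancomycin-treated rats, 2.79% for the combination against vehicle, 0% for vancomycin and the interaction, and 13.1% for the averaged PFOS effect. Unadjusted p-values under 0.05 were found for 1, 0, 3, 0, 0 and 3 of the 14 genes in that order of comparisons. These were 7.14%, 0%, 21.4%, 0%, 0% and 21.4% of the 14. The shares of all genes were 16.5%, 20.4%, 20.1%, 2.57%, 4.03% and 29.3%. In the average, Hmgcs1 was at 0.37 ± 0.14 with an edgeR adjusted p of 0.0871. It ran from 7.27 to 28.9 CPM with a median of 16.1 in PFOS thyroids (n = 10), against 4.56 to 19.4 CPM with a median of 12.0 in vehicle thyroids (n = 12), and the groups overlapped. Ggps1 was at 0.34 ± 0.15 and Pmvk at -0.18 ± 0.08.

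Neighbouring genes of the pathway were followed in 4 further lists, of 9 genes of the isoprenoid branches and the last reductase, 9 of SREBP processing and sterol-regulated degradation, 9 of efflux and LXR signalling, and 10 of lysosomal and intracellular sterol traffic. In liver 2, 4, 4 and 4 of them were tested and none was called in any comparison, and Lipa, the lysosomal acid lipase, was the one with an unadjusted p under 0.05 for PFOS against vehicle, at -0.29 ± 0.13. In pituitary 4, 3, 2 and 4 were tested and none was called. In hypothalamus, the averaged PFOS effect was called for 3 of 4 tested efflux and LXR genes, all lower, against 20.3% of all genes. For PFOS against vehicle 0 of these 4 were called by edgeR, for PFOS in vancomycin-treated rats 1, and for the combination against vehicle 1. Those called in the average were Apoe, the apolipoprotein that carries lipid between brain cells, at -0.57 ± 0.11 (edgeR adjusted p 0.000227), the sterol exporter Abcg1 at -0.65 ± 0.18, and the oxysterol receptor Nr1h2 at -0.49 ± 0.16. In the other lists 1 of 5, 1 of 7 and 1 of 4 tested genes were called, shares near that of all genes. Fnta, a farnesyltransferase subunit, was lower at -0.40 ± 0.10, Npc2, which hands cholesterol to Npc1, at -0.15 ± 0.05, and Mbtps1, the protease that makes the first cut in SREBPs, higher at 0.35 ± 0.11. Some cell type markers were called in the same average: 4 of 7 oligodendrocyte genes (median -0.42), 2 of 6 astrocyte genes (median -0.14) and 2 of 6 tested macrophage genes (median -0.17) were lower and none higher. In each of these lists 4 estimates were below 0 and the others were not. Of 7 neuron genes 3 were lower and 1 higher, and of 4 tested blood cell genes 1 was lower. The 1 hepatocyte gene tested was called higher, at 0.32. The oligodendrocyte markers summed to 0.647% to 0.973% of counts in combination, 0.682% to 0.987% in PFOS, 0.654% to 1.21% in vancomycin and 0.673% to 0.961% in vehicle hypothalami, and the astrocyte markers to 0.395% to 0.510%, 0.430% to 0.530%, 0.427% to 0.528% and 0.413% to 0.569% in the same order. Their part in the efflux genes was not tested. In thyroid Apoe was the 1 gene called of 18 tested in these lists (5.56%), at -0.37 ± 0.10 in the average, where 13.1% of all genes were called, and alternatives were not run for these lists.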

How the data were processed

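The authors deposited whole-number counts per gene for 192 barcoded libraries on 2 plates of 96 wells, prepared by BRB-seq per the labels. The submitters' processing notes name BWA 0.7.4.4 and the build rn6, without the role of either, and the counting step is not given in the sources used here. The file names carry the term UMI (unique molecular identifier), so the counts may be of molecules and not of reads. Libraries under 100000 counts were left out (11 livers, 1 hypothalamus, 2 thyroids). Within each tissue the 4 treatment groups entered 1 fit in edgeR 4.0.16 (R 4.3.3), with TMM scaling, the filterByExpr filter at a minimum count of 10 and the robust quasi-likelihood F test, and Benjamini-Hochberg adjustment ran over all genes tested at a threshold of 0.05. Standard errors are the log2 fold change divided by the square root of F. Differences between tissues used vehicle libraries of 1 plate, or an interaction over 2 tissues, and slopes on Hmgcs1 used its log2 CPM with a prior count of 2. The 28 genes and all other lists were chosen with earlier results of these data known. Genes named are those of the set, the called genes of the 4 further lists, and the nearest gene below the threshold. The procedure was tested on simulated data. Alternatives were DESeq2 1.42.0, its size factors, no filter, a minimum of 500000 counts, depth or barcode composition as a covariate, libraries of usual barcode composition alone, a replicate block across tissues, and leaving out each library.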

Additional observations from a re-analysis of the deposited data

Results flagged for a closer look

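Single genes were examined for a value far from the rest within groups of 4 to 10 libraries. Only the liver groups and the PFOS thyroids were of that size, so pituitary, hypothalamus and the other thyroid groups were not examined. Of 102 tests, each of 1 gene in 1 group, 12 found such a value, where chance gives about 1 in 20. The tests of a group share its libraries and are not independent. The PFOS liver numbered 35, with 107856 counts, stood high for Acat2 at 120.531 CPM (next 48.5552), Hmgcs1 at 667.557 CPM (next 374.28) and Idi1 at 139.074 CPM (next 109.249). The vehicle liver numbered 2, with 106742 counts, stood high for Fdft1 at 243.578 CPM (next 169.665) and Lss at 84.3155 CPM (next 36.5874). Combination livers stood high for Sqle (number 38, 113.797 CPM, next 67.4012) and Srebf2 (number 45, 79.8102 CPM, next 30.1067). The vancomycin liver numbered 24 had 152.525 CPM of Dhcr7 (next 72.739). Vehicle liver 3 had 1610.82 CPM of Fdps (next 1017.99), and vehicle liver 1 had 207.328 CPM of Sc5d (next 340.866). PFOS thyroids stood high for Msmo1 (number 35, 62.0731 CPM, next 43.3486) and Ebp (number 27, 72.1568 CPM, next 54.6243).

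The averaged PFOS effect differed between tissues by the edgeR interaction. Liver minus hypothalamus, tissues of different plates, gave -0.735877 for Acat2, -0.665462 for Sqle, -0.844421 for Npc1 and -0.409114 for Fdps. Liver minus thyroid gave -0.764773 for Acat2 and -0.619105 for Sqle.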

How the results depend on the processing

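Of 221 counts of called genes recomputed under the alternatives other than leaving out a library, 181 stayed within 1.5 times and 40 moved, and of 308 values of single genes 258 kept direction and side of the threshold, 47 lost a call, 1 gained one and 2 reversed; the cause was not tested. In liver, PFOS against vehicle called 0 genes with DESeq2 size factors, no filter, a minimum of 500000 counts, barcode composition as a covariate and without unusual barcodes, and the averaged effect 0 with no filter and 2 with depth as a covariate. In pituitary, PFOS, the combination and the average called 0 at the minimum of 500000 counts and in both barcode fits. In hypothalamus, PFOS called 1 under DESeq2 and in both barcode fits (Mvk), PFOS in vancomycin-treated rats 0 with no filter, with depth and without unusual barcodes, the combination 1 under DESeq2, and the average 0 with no filter or depth and 3 at 500000 counts. The thyroid average called 1, Ggps1, in both barcode fits. Liver against thyroid gave 23 calls with no filter and under DESeq2; liver minus pituitary gave 1 under DESeq2. Slopes on Hmgcs1 were called for 0 genes in pituitary at 500000 counts and with Sqle in its place, and in liver for 0 there, with no filter and without 2 libraries, and for 2 with depth. The reversed values, at 500000 counts, were -0.00402 for Acat2 under vancomycin in liver (0.11 in the main fit) and -0.42 for Idi1 between pituitary and hypothalamus (0.48).

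Leaving out 1 library, calls ran from 0 to 1 for PFOS in liver and 1 to 2 for the average; stayed at 1 for PFOS, combination and average in pituitary and ran from 0 to 1 for vancomycin; and ran from 0 to 1 for PFOS, PFOS with vancomycin and the combination, and 0 to 2 for the average, in hypothalamus. All other counts stayed at 0, thyroid included. Libraries with the same number in 2 tissues had correlations of their deviations with medians of 0.028 to 0.090 and a range of -0.319 to 0.472. Correlations passed 0.1 in 16 of 37 pairs of liver and pituitary, 2 of 37 of liver and hypothalamus, 4 of 36 and, in vehicle rats alone, 2 of 9 of liver and thyroid, and 3 of 12 of pituitary and hypothalamus. Not every pair passed, and the main fits did not use the number. These correlations cannot decide whether a number is 1 animal, because noise in libraries of few counts can also hold a pair under 0.1. The same number had the same treatment in all 4 tissues. With the library number as a replicate block, liver minus thyroid called 0 genes against 2 (Acat2 -0.69, edgeR adjusted p 0.0674, and Sqle -0.62, adjusted p 0.0762), liver minus hypothalamus 3 against 4, liver minus pituitary 0 against 0, liver against thyroid 15 against 15, and pituitary against hypothalamus 13 against 13. Low counts left 22 of the 28 genes to be tested in liver and 14 in thyroid.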
